A study of Mus musculus with 2 samples.

Results

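Integrins are the receptors by which cells hold on to matrix and to each other, and laminins are the cross-shaped proteins of the basement membrane that many integrins of muscle bind. The genes of both families were followed in regenerating mouse tibialis anterior muscle. They were found by symbol alone: every gene whose symbol starts with Itga, is Itgb with a single digit, or starts with Lama, Lamb or Lamc and a digit, and that has a probe set annotated to no other gene. This gave 36 genes (26 integrin and 10 laminin chains) of 19938 in all. Of these, 30 had at least 1 of their 2 values reach a floor set at the median of all array values (4.40), as 11787 genes of the series did.

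The arrays compared 2 RNA pools, 1 of wild type (Mef2a +/+) and 1 of Mef2a -/- mice, both of mixed 129Sv/C57BL6 strain and aged 2 to 4 months, with males and females used. In every mouse, 50 µl of 10 µM cardiotoxin, a snake toxin that kills fibres, had been put into the right tibialis anterior, and the muscle was taken at day 7. Each pool held RNA of 5 mice and was read on 1 array, so no value has a replicate error and no test was possible. Values are log2 RMA values, that is, probe set signals corrected for background and brought to the same distribution on both arrays. The labels state neither the deleted part of Mef2a nor the tissues in which it is gone. Mef2a itself gave 8.92 in wild type and 9.06 in the other pool, which leaves the genotype labels unchecked, and the second pool is therefore called the labelled knockout pool.

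An integrin is a pair of one alpha and one beta chain, and the pair sets the ligand. Pairs with the beta chain of Itgb2 are made by leukocytes, which use them to stop on endothelium, to enter tissue and to take up complement-coated debris. In muscle, the pair of the Itga7 and Itgb1 chains ties the fibre to laminin, beside the dystroglycan complex. A laminin is a trimer of an alpha, a beta and a gamma chain, and the trimer around adult fibres carries the alpha chain of Lama2.

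The leukocyte integrins were higher in the labelled knockout pool, a few matrix receptors were higher too, and the laminins lay close to or slightly below their wild type values. Differences below are labelled knockout minus wild type, in log2 units. Of 6 leukocyte and platelet integrins at the floor, 5 were at least 1.5-fold higher, as were 4 of 16 muscle and stromal integrins and 0 of 8 laminins. The 4 include Itga2, which reached the floor in the labelled knockout pool alone. Among all 11787 genes at the floor, 6.45% were at least 1.5-fold higher. At 2-fold the counts were 3, 1 and 0 in the same order, against 1.70% of all genes. No integrin or laminin was 1.5-fold lower, a limit passed by 1.90% of all genes. The medians of the 3 groups at the floor were 1.24, 0.16 and -0.22, beside 0.03 for all genes at the floor. Over all 9, 17 and 10 genes measured they were 0.73, 0.15 and -0.24, beside -0.03 for all 19938 genes. The robust SD of the difference over all genes at the floor, from the median absolute deviation, was 0.28.

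**Figure D1:**
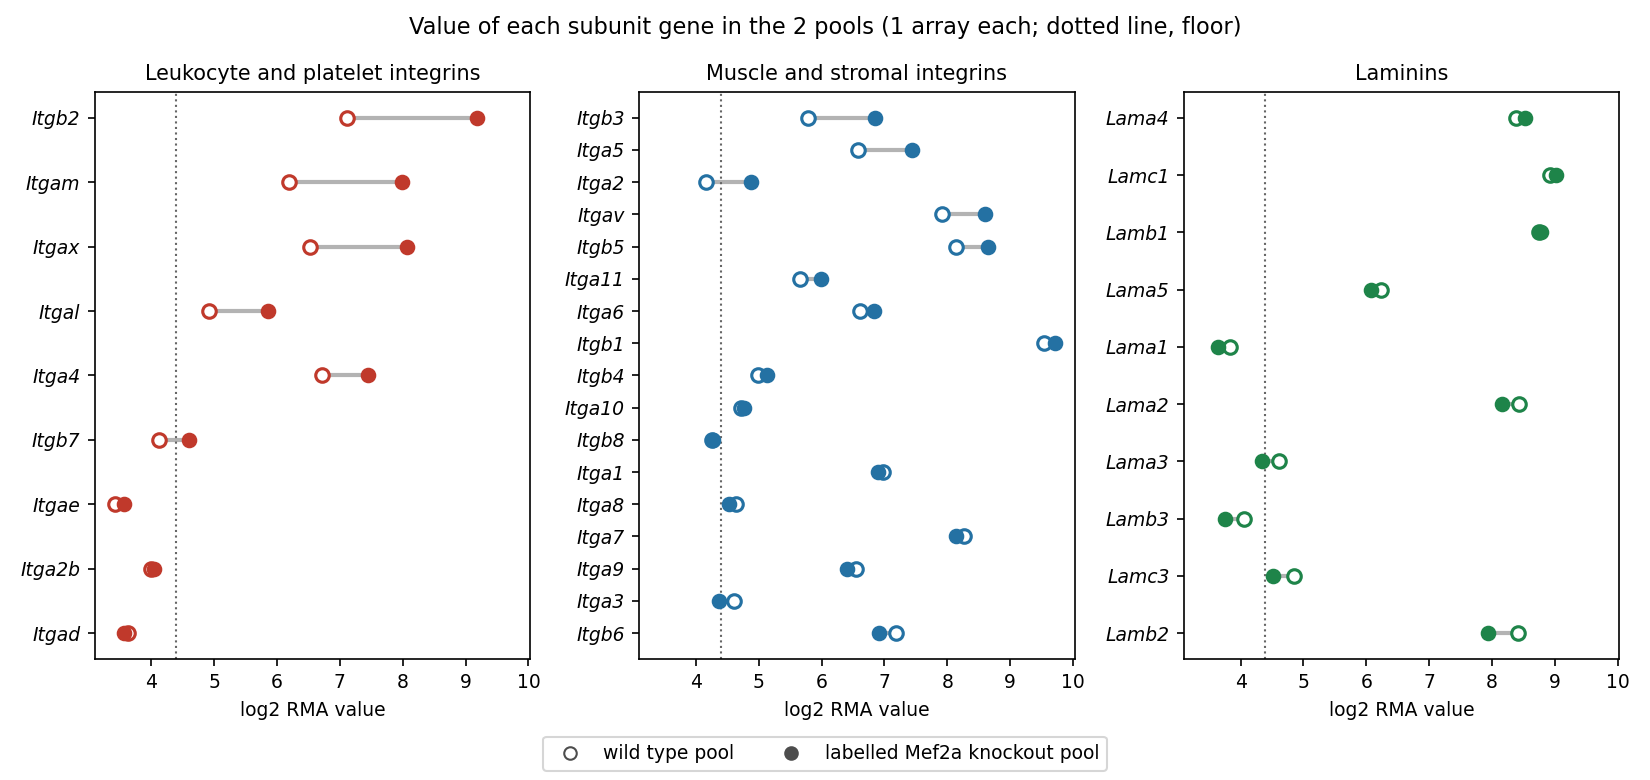
Log2 RMA value (x axis) of each of the 36 integrin and laminin genes in the wild type pool (open circles) and the labelled knockout pool (filled circles), 1 array each, with the floor of 4.40 as a dotted line. Genes are ordered by their difference. The long gaps are those of Itgb2, Itgam and Itgax, while the laminin circles lie close together.

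Itgb2 encodes the beta chain that leukocyte integrins share, and Itgam, Itgax, Itgal and Itgad encode 4 of its alpha partners. Itgb2 read 7.11 in wild type and 9.19 in the labelled knockout pool, a 4.21-fold difference (2.07). Itgam, the alpha chain of complement receptor CR3 on macrophages and neutrophils, read 6.20 and 7.99, which is 3.48-fold (1.80). Itgax, the CD11c chain of dendritic cells and many tissue macrophages, read 6.53 and 8.06, a 2.89-fold difference (1.53). These 3 genes had the largest differences of the 36. Itgal, the alpha chain of LFA-1, which binds ICAM proteins and is carried by most leukocytes, read 4.91 and 5.86, or 1.93-fold (0.95). The size of the difference exceeded that of 99.4% of the 500 genes of nearest mean expression for Itgb2, 100% for Itgam, 99.8% for Itgax and 98.2% for Itgal.

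Itgad was not measurable. Its 2 probe sets were below the floor in both pools, and the brighter read 3.63 in wild type and 3.57 in the labelled knockout pool, so a difference could not be seen. In the RefSeq gene table for mouse, Itgam, Itgax and Itgad follow one another on chromosome 7 with only pseudogenes between them.

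The start regions of Itgam and Itgax are shown because these genes have the largest differences among members with a promoter in the RefSeq table used (build GRCm38.p6). Itgav is shown as a matrix receptor that was higher and Lamb2 as the laminin with the lowest difference. Each window runs from 250 bases before to 50 bases after the annotated start. Capitals mark the letters GAGGAA or, for the other strand, TTCCTC, the core bound by PU.1, an ETS-family factor of myeloid cells.

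Itgam promoter, chr7:128062390-128062689, plus strand: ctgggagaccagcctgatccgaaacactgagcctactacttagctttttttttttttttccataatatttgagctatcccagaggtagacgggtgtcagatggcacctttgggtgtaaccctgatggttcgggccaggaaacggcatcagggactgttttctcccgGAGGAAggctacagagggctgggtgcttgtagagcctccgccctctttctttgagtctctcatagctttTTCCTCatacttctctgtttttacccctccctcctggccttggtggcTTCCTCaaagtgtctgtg
Itgax promoter, chr7:128129300-128129599, plus strand: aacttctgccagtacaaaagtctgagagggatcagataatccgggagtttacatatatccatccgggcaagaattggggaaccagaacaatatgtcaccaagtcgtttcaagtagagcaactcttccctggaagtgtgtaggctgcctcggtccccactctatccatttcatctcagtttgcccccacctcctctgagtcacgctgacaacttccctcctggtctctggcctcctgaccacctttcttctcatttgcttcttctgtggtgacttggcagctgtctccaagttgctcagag
Itgav promoter, chr2:83724147-83724446, plus strand: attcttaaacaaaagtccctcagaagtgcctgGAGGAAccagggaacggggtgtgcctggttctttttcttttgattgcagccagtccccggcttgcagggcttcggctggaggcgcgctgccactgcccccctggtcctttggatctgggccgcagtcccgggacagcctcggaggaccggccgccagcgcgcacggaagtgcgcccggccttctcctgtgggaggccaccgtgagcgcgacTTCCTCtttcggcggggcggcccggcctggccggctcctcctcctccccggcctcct
Lamb2 promoter, chr9:108479612-108479911, plus strand: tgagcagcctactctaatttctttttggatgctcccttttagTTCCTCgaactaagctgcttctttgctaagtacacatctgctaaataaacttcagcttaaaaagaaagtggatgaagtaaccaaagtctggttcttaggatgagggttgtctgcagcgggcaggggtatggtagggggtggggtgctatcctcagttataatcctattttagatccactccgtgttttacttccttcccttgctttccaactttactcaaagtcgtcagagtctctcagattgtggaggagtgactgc

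The core was found 3 times in the Itgam window, 2 times in that of Itgav, 1 time in that of Lamb2 and 0 times in that of Itgax. It was present in 3 of 5 windows of the leukocyte and platelet integrins, 6 of 15 of the muscle and stromal integrins and 5 of 6 of the laminins, against 28.3% of all 32851 windows of the same length. The MEF2 consensus, searched on both strands, was in 1 of the 26 member windows, that of Itga10, and in 3.19% of all windows. These 26 windows belong to 23 genes, and none was used for Itgb2 or Itgal. A match is a run of letters and does not show binding.

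Of the other leukocyte chains, Itga4 was past 1.5-fold. Itga4, the alpha chain of VLA-4, which binds VCAM-1 and fibronectin, read 6.71 in wild type and 7.45 in the labelled knockout pool (0.73, 1.66-fold). Its partner on gut-homing lymphocytes, Itgb7, read 4.11, below the floor, and 4.60, a difference of 0.49 that fell short of 1.5-fold. Itgae, which pairs with Itgb7 on lymphocytes of epithelia, was below the floor at 3.41 and 3.56. Itga2b, the platelet chain of the fibrinogen receptor, was also below it, at 3.99 and 4.05.

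Macrophage marker RNA was higher in the same pool. All 21 measured markers of 22 listed were at the floor and higher than in wild type, with a range from 0.04 to 2.11 and a median of 0.998. Of these, 19 were at least 1.5-fold higher, against 6.45% of all genes at the floor. The list was chosen with earlier results of these data known, so it is no independent yardstick. Msr1, a scavenger receptor, was higher by 2.11, Gpnmb, a glycoprotein of lipid-laden macrophages, by 1.96, and Lgals3, galectin-3, by 1.62. The summed macrophage signal, on the linear scale, was 13996 in the labelled knockout pool and 5959.5 in the wild type pool, a ratio of 2.35. Itgb2 exceeded 20 of the 21 markers, Itgam 19 and Itgax 17, while Itgal exceeded 8 and Itga4 3. The part of macrophage content in the integrin differences was not tested, and in whole muscle more cells of a type and more RNA per cell cannot be told apart.

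Markers of other blood cells were mostly below the floor. Of 13 neutrophil genes, 11 were below the floor in both pools, the defining genes S100a8, S100a9 and Ly6g among them, and the summed level was 187 against 141 in wild type. Lcn2 (0.94) and Csf3r (0.38) reached the floor, and Lcn2 is made by other cells too. All 13 measured lymphocyte markers, Cd3e and Ms4a1 included, were below the floor, with sums of 125 and 135 in the labelled knockout and wild type pools. Of 6 measured platelet genes, Pf4 (0.51) and Treml1 (0.18) reached the floor.

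**Figure D2:**
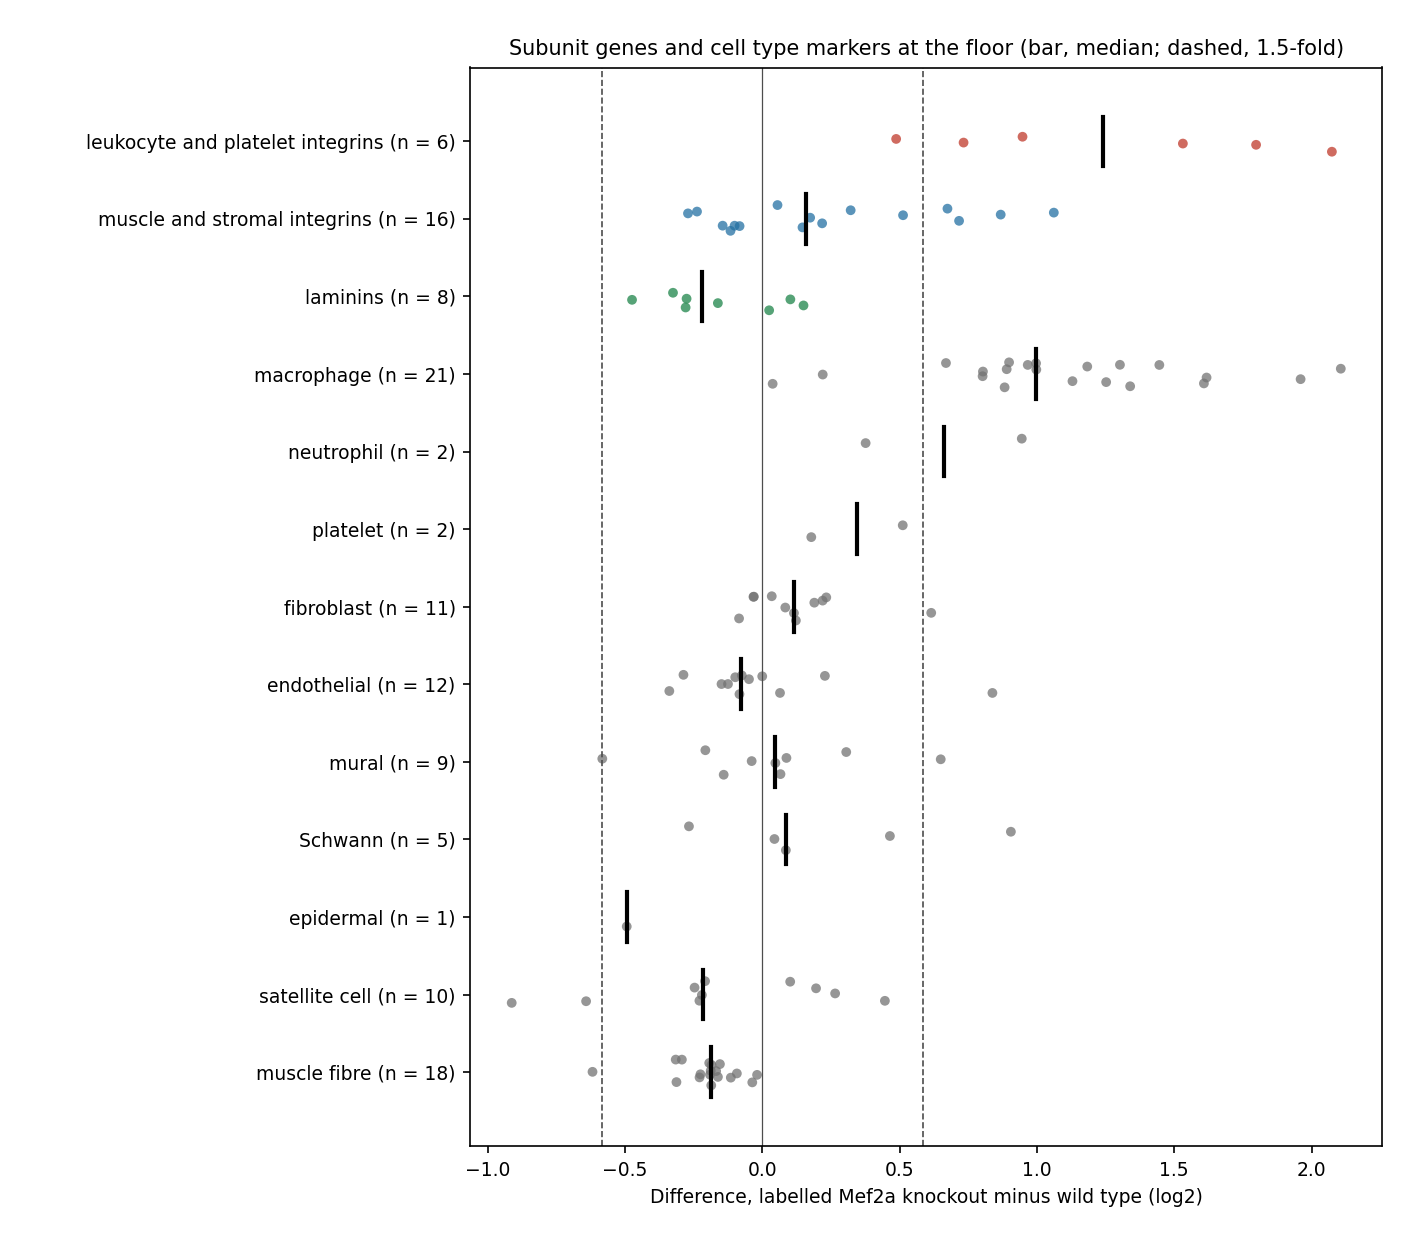
Difference between the pools (x axis, log2) of each gene at the floor, for the 3 member groups (coloured) and 10 lists of cell type markers (grey), with the median of each list as a black bar and 1.5-fold as dashed lines. Lymphocyte markers are left out, since none reached the floor. The macrophage row, with a median of 0.998, spans the range of the leukocyte integrins, and the muscle fibre row lies below 0.

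Among integrins of muscle, stroma and vessels, the class of receptors for RGD peptides of fibronectin, vitronectin and osteopontin had the highest median (0.59). Ligand classes were set after the values were seen, so this ranking is only a description. Of 6 at the floor, 3 were at least 1.5-fold higher, against 6.45% of all genes. Itgb3, the beta chain of the vitronectin receptor of osteoclasts, macrophages, platelets and endothelium, read 5.79 in wild type and 6.85 in the labelled knockout pool, or 2.09-fold (1.06). Itga5, the alpha chain of the fibronectin receptor, read 6.57 and 7.44, which is 1.83-fold (0.87). Itgav, the alpha chain with which Itgb3, Itgb5, Itgb6 and Itgb8 pair, read 7.92 and 8.60, or 1.60-fold (0.67). These 3 exceeded 98.6%, 97.6% and 92.8% of the 500 genes of nearest mean in the size of their differences.

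The beta partners of Itgav had differences of unlike size. Itgb5, a vitronectin receptor chain of fibroblasts and macrophages, read 8.14 and 8.65, a difference of 0.51 that did not reach 1.5-fold. Itgb6, an activator of latent TGF-beta in epithelia, read 7.19 and 6.92 (-0.27). Itgb8, which does the same in glia and immune cells, was below the floor at 4.26 and 4.27. Itga8, a chain of smooth muscle and mesenchyme that binds nephronectin, read 4.63 and 4.53 (-0.10). So the chains of the pair formed by Itgav and Itgb3 were both past 1.5-fold. Itgb6 lay below 0, but by less than the robust SD of 0.28. The size of its difference exceeded that of 67.6% of the 500 genes of nearest mean, so its sign says little.

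The collagen receptors are Itga1, Itga2, Itga10 and Itga11, each of which pairs with Itgb1. Itga2, found on platelets, epithelia and some fibroblasts, read 4.15, below the floor, in wild type and 4.87 in the labelled knockout pool, or 1.64-fold (0.72). Since it passed the floor in only 1 pool, its fold rests on a value below the floor. Itga11, a fibroblast receptor for fibrillar collagen, read 5.66 and 5.98 (0.32). Itga1, of vessels and stroma, differed by -0.08 (6.98 and 6.90), and Itga10, of cartilage, by 0.06 (4.71 and 4.77). A difference past 1.5-fold was seen in 1 of the 4. Among all genes at the floor 6.45% were 1.5-fold higher, so this count says little about the class.

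The integrin chains of laminin receptors, of the fibre and of other cells, showed small differences. Itga7, the main alpha chain of adult fibres, read 8.26 in wild type and 8.15 in the labelled knockout pool (-0.12). Its partner Itgb1, shared by many alpha chains, read 9.54 and 9.71 (0.17). Itga6, of satellite cells, endothelium and Schwann cells, read 6.62 and 6.84 (0.22). Itgb4, which pairs with Itga6 in epithelia and Schwann cells, read 4.99 and 5.13 (0.15), and Itga3, of epithelia, 4.61 and 4.37, the latter below the floor (-0.24). All 5 were within 1.5-fold, and their sizes exceeded those of 36.6% to 59.8% of the 500 genes of nearest mean. Itga9, which binds tenascin and other ligands, was also within it at 6.55 and 6.40 (-0.14).

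**Figure D3:**
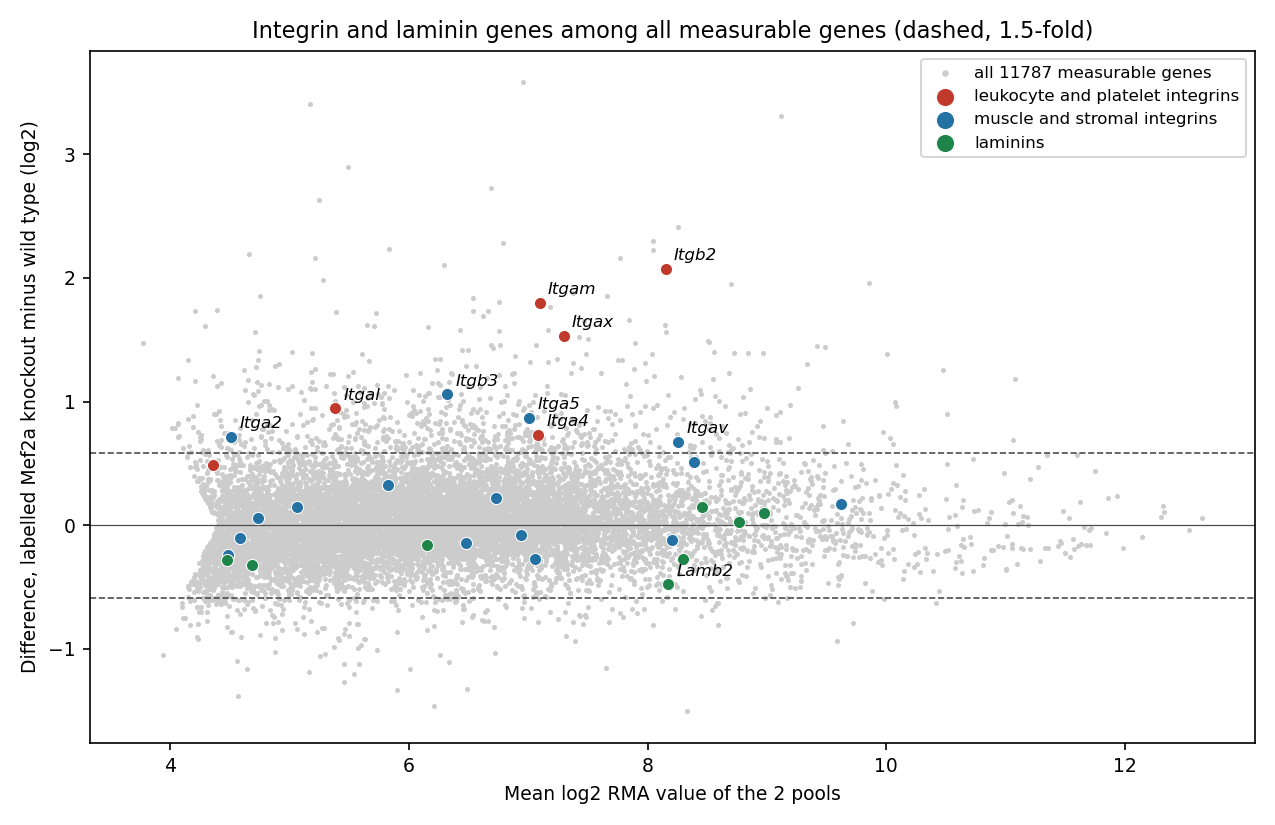
Difference between the pools (y axis, log2) against the mean of the 2 values (x axis, log2) for 11787 genes at the floor (grey), with the 30 member genes at the floor coloured by group and 1.5-fold as dashed lines. Named are the 9 members past 1.5-fold and Lamb2. Itgb2, Itgam and Itgax lie at the upper edge of the cloud, and the laminins lie inside it.

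Laminin chains differed by less than 1.5-fold, and 5 of the 8 at the floor had differences below 0. Of all 11787 genes at the floor, 5245 lay below 0, so this count says little. Lama2, whose loss causes a congenital muscular dystrophy, read 8.44 in wild type and 8.16 in the labelled knockout pool (-0.28). Lama4, of vessels and peripheral nerve, read 8.38 and 8.53 (0.15). Lama5, found in vessels and at the neuromuscular junction, read 6.24 and 6.07 (-0.16). Lama3, an epithelial chain, read 4.62 and 4.34, below the floor (-0.28), and Lama1, a chain of the embryo, was below it in both pools at 3.84 and 3.63. Only Lama4 of these alpha chains was higher in the labelled knockout pool.

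Lamb2, the beta chain enriched at the synapse between nerve and fibre, had the lowest difference of all 36 genes. It read 8.41 in wild type and 7.94 in the labelled knockout pool, which is 1.39-fold lower (-0.47) and larger in size than 85.4% of the genes of like expression. Lamb1, the beta chain of most other trimers in muscle, read 8.76 and 8.78, a difference of 0.03 that turned to -0.00083 when differences were centred on the median of all genes and to -0.0086 with a loess trend removed. Lamc1, the gamma chain of nearly all muscle laminins, read 8.92 and 9.02 (0.10). Lamc3, a gamma chain of nerve and other tissues, read 4.85 and 4.52 (-0.32), and Lamb3, of skin, was below the floor at 4.05 and 3.76. Every laminin at the floor, Lama2 and Lamb2 included, lay within 1.5-fold. Over all genes at the floor, 6.45% were 1.5-fold higher and 1.90% lower, so a count of 0 in 8 says little.

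All 18 muscle fibre markers were at the floor and lower in the labelled knockout pool, by 0.02 to 0.62, with a median of -0.19. One marker, Myh2, passed 1.5-fold, as did 1.90% of all genes at the floor in that direction. Myh2 (a fast myosin, -0.62), Ryr1 (the calcium release channel, -0.31) and Tnni2 (fast troponin I, -0.31) differed most. The summed level of the list was 47549 against 53114 in wild type. The median of the laminins was -0.22. Of 12 epidermal markers, 11 were below the floor, Krt5 and Krt14 among them, and Trp63 (-0.49) reached it. The part of fibre content in the laminin differences was not tested.

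Markers of the other cells of the tissue were set beside the integrins as well. Fibroblast markers had a median of 0.12 over 11 genes at the floor, with sums of 17005 against 15231 in wild type, and with 1 gene past 1.5-fold, Thy1 (0.62, or 0.55 with a loess trend removed, under 1.5-fold). Next were Col1a1 (0.23) and Col1a2 (0.22). Endothelial markers had a median of -0.08 over 12 genes and sums of 1275 against 1315, with Vwf at 0.84, Sox18 at -0.34 and Kdr at -0.29. Mural cell markers had a median of 0.05 over 9 genes, with Pdgfrb at 0.65, Abcc9 at -0.58 and Cspg4 at 0.31, and sums of 4955 against 4725.

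Satellite cells, the stem cells of muscle, and Schwann cells both carry Itga6. Of 10 satellite cell markers at the floor, 0 were 1.5-fold higher and 2 were 1.5-fold lower, Chodl (-0.91) and Msc (-0.64), while Cxcr4 differed by 0.45. Over all genes at the floor, the shares were 6.45% higher and 1.90% lower. The median of the satellite cell list was -0.21, and its sums were 1357 against 1359 in wild type. Of 8 measured Schwann cell markers, Sox10, Mag and Cdh19 were below the floor in both pools, and the 5 others had a median of 0.09, with Egr2 at 0.91, Mbp at 0.46 and Ngfr at -0.27. The Schwann cell sums were 580 against 524. The part of these cell types in the integrin and laminin differences was not tested.

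The other genes of adhesion were taken from 6 lists. Over all genes at the floor, 6.45% were at least 1.5-fold higher and 1.90% lower. Among 28 genes of integrin activation and focal adhesion at the floor, 8 were at least 1.5-fold higher, with a median of 0.25. A count of 0 lower in the 28 says little beside that share. The largest differences were those of Ptk2b, a kinase of adhesion signalling (1.34, 6.89 against 5.55 in the wild type pool), Fermt3, the kindlin of blood cells (0.96), and Actn1, an actin cross-linker (0.91). Fermt3 is itself a gene of leukocytes and platelets. Of 12 membrane proteins that associate with integrins, 6 were 1.5-fold higher, led by the tetraspanin Cd9 (1.39), the urokinase receptor Plaur (1.15) and the hyaluronan receptor Cd44 (0.98). Thy1, also in the fibroblast list, is 1 of the 6, and 5 remained with a loess trend removed. Cav3, the caveolin of muscle fibres, named after its value was seen, was the 1 lower (-0.73).

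Of 17 matrix and plasma ligands at the floor, 7 were at least 1.5-fold higher and 0 lower (median 0.33). Tnc, the tenascin C gene and a ligand of the Itga9 pair, differed by 1.40. The thrombospondins Thbs1 and Thbs2 differed by 1.23 and 0.91. Vwf (0.84), also in the endothelial list, is 1 of the 7. Of 6 ligands on cell surfaces at the floor, 0 passed 1.5-fold in either direction (median -0.04). Over all genes at the floor, 6.45% were 1.5-fold higher, so a count of 0 in 6 says little, and the 2 ligand lists were not tested against each other. Vcam1, the ligand of Itga4, differed by 0.27, Jam2 by -0.23 and Icam1, a ligand of the pairs with Itgb2, by 0.21.

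Partners of laminin in the basement membrane lay near 0. Of 14 at the floor, 0 were 1.5-fold higher or lower, and the median was -0.01, with Fbln1 at 0.34, Col18a1 at 0.29 and Fbln2 at 0.25. The shares over all genes at the floor were 6.45% higher and 1.90% lower, so a count of 0 in 14, or of 1 in 12 below, says little. Of 12 other laminin receptors and glycosylation genes, 1 was 1.5-fold higher, the syndecan Sdc1 (0.97), and 0 were lower (median -0.10). Next in size were the sarcoglycans Sgca (-0.51) and Sgcd (-0.42), which stabilise the dystrophin complex. The macrophage sum was 2.35-fold and the muscle fibre sum 0.895-fold in the same RNA, and their part in these lists was not tested.

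**Figure D4:**
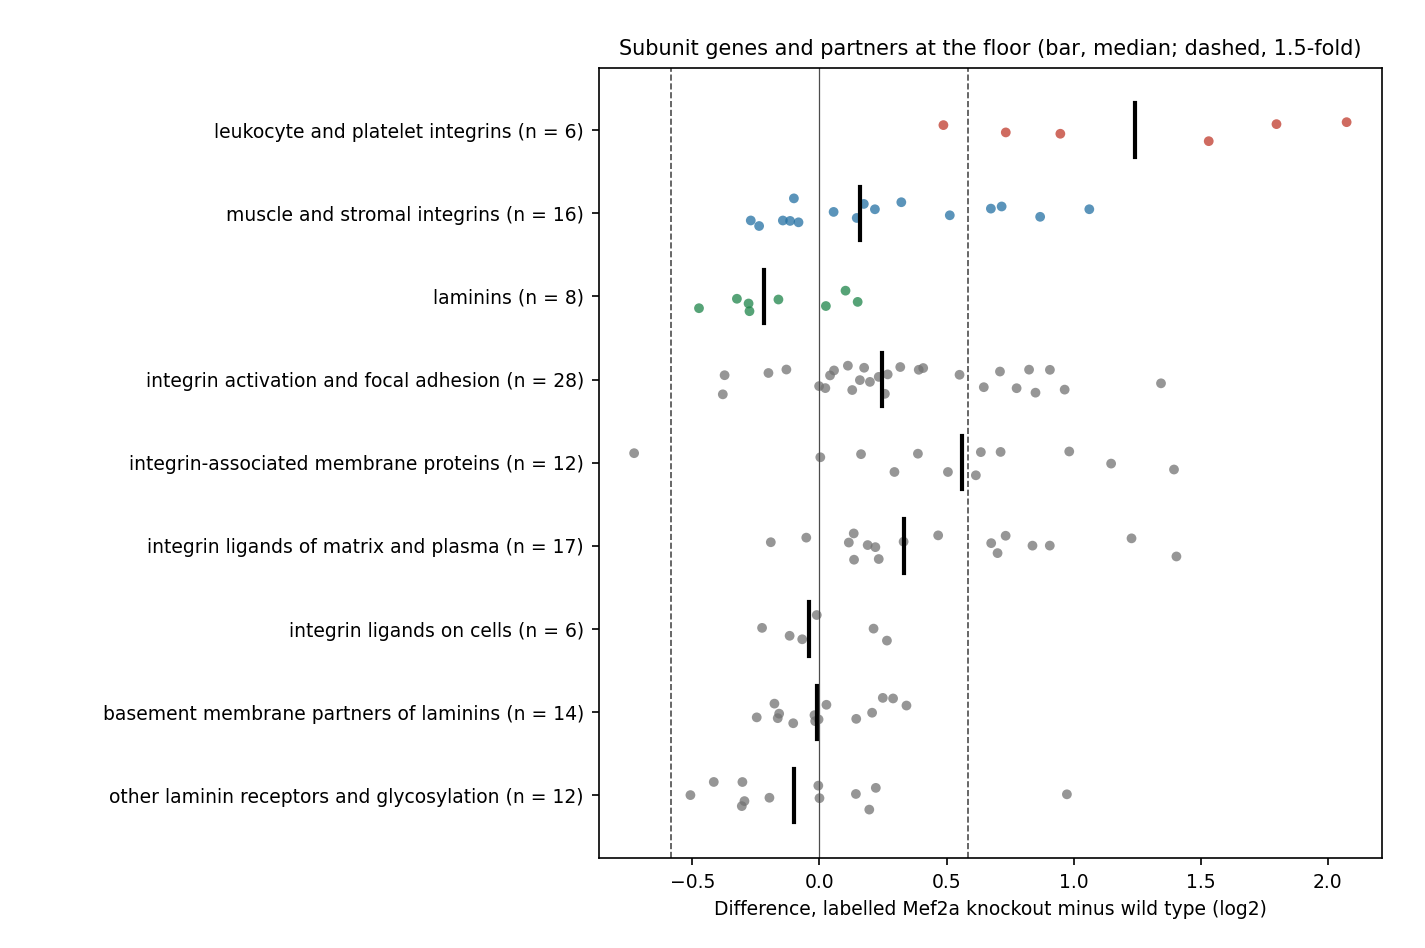
Difference between the pools (x axis, log2) of each gene at the floor for the 3 member groups (coloured) and 6 lists of partners (grey), with medians as black bars and 1.5-fold as dashed lines. Matrix ligands and associated membrane proteins extend past the upper limit, whereas basement membrane partners lie within both limits, as the laminins do.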

How the data were processed

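Total RNA from injured muscle was pooled from 5 mice per genotype in equimolar amounts and hybridised to 1 array per pool, per the labels' protocols. The deposited values are on the log2 scale. Per the submitters' processing notes, the authors used Affymetrix Expression Console and RMA, which includes quantile normalization and so hides a change shared by most genes. Versions: not given in the sources used here.

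Probe sets were named from the platform annotation: 21789 of 35557 have 1 gene symbol, 1621 several and 12147 none. Only those with 1 symbol were used, the one with the highest mean standing for a gene. All member identifiers carried the same symbol in RefSeq's gene list (GRCm38.p6). Differences, counts past 1.5-fold and ranks among the 500 genes of nearest mean were computed with Python 3.11.15, pandas 2.3.3 and numpy 2.4.6, and checked on simulated data. The number of arrays limits the precision, and values near the floor understate differences.

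All members are named, and in each list the 3 largest differences at the floor. Members, groups and lists were chosen with earlier results of these data known. Ligand classes were set after the values were seen. Promoter windows came from RefSeq. Alternatives were other floors, a 2-fold limit, median centring, averaging all probe sets of a gene, removal of a loess trend (statsmodels 0.14.6, span 0.3) and another assignment of Itga4, Itga2b and Itgb3.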

Additional observations from a re-analysis of the deposited data

How the results depend on the processing

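Under centring and loess removal, all 30 members at the floor stayed on their side of 1.5-fold. The mean of all probe sets could change none of them, since only Itgad, below the floor, has more than 1 probe set. The direction turned only for Lamb1, under centring and under loess removal. Loess removal also took the count of higher associated membrane proteins from 6 to 5. With a 2-fold limit, the count of higher genes was 3 for the leukocyte and platelet integrins, 1 for the muscle and stromal integrins, 1 for focal adhesion genes, 2 each for matrix ligands and for associated membrane proteins and 0 for other laminin receptors, and the count of lower associated membrane proteins was 0. The leukocyte and platelet median was 0.73 over all 9 genes without a floor, and 1.66 when the floor was raised to the 75th percentile, where the laminin median was -0.068. These follow from which genes the floor leaves. Moving Itga4, Itga2b and Itgb3 between groups left the counts at 5 and 4. These counts could not change, since Itga4 and Itgb3, both past 1.5-fold, changed places and Itga2b was below the floor. With 1 array per genotype, no replicate could be left out and no spread estimated. No paired analysis was possible because each genotype has 1 array.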

Other observations

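A further 3 probe sets are annotated to Itgam together with the ribosomal protein gene Rpl35 and entered no comparison. They were bright and nearly equal in the pools, with differences of 0.11, 0.16 and 0.11 and wild type values of 8.39, 8.02 and 8.30, unlike the probe set of Itgam alone, which differed by 1.80.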
